A study of Cyanidioschyzon merolae with 29 samples.

Results

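The unicellular red alga *Cyanidioschyzon merolae* carries a chloroplast genome whose loci are named CMV, and 42 of the 4984 genes in the deposited count table are chloroplast-encoded ribosomal protein genes. A gene was taken as a member when its locus name began with CMV and its description named a ribosomal protein. The rule used no measured value, but it was set with earlier results of these data known. The 42 genes comprise 25 for the large and 17 for the small ribosomal subunit, out of 207 chloroplast-encoded genes in the table. RNA sequencing of bulk cultures gave 29 libraries, which the study used to follow the transcriptome during long exposure to nickel. All cultures were of *C. merolae* strain NIES-3377, kept in an acidic medium at high temperature under continuous light, with nickel given as its sulfate, and each condition is represented by 3 libraries unless stated otherwise. Cells in 1 mM Ni and in 3 mM Ni were collected on days 5, 10 and 15, and untreated cells of the same strain, with no nickel added, on the same days and on day 0. The 1 mM Ni condition of day 15 is represented by 2 libraries. The culture labels (for example C3 or 3C) recur across days, but nothing in the labels states that a recurring label marks one flask followed through time.

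Chloroplast ribosomes are of the bacterial type, and each is built from a large subunit, which forms peptide bonds, and a small subunit, which reads the messenger RNA. In algae and plants their proteins are encoded partly in the chloroplast and partly in the nucleus, and red algae keep an unusually large share of these genes in the chloroplast. Many of them lie in clusters that resemble the S10, spc, alpha and str operons of bacteria. These ribosomes translate the chloroplast messages, among them those of the photosystems, of the ATP synthase and of Rubisco.

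The library totals lay between 2602444 and 4067107 counts, with a median of 3121668, and chloroplast-encoded genes took 2.1% to 6.82% of them. Libraries were made by poly(A) selection, and how completely this step captures chloroplast transcripts was not tested. RNA of some samples was purified again before library preparation, and the labels do not say which. One library stood apart. The untreated day 15 culture C1 had the highest chloroplast share, and its log2 CPM (counts relative to the scaled library total) values deviated from the mean of its condition with an SD of 0.66 over all tested genes, against 0.125 to 0.489 in the other 28 libraries. The second highest value, 0.489, belonged to the untreated day 5 culture C3. Counts of called genes that moved without either library are given below for several comparisons, and as ranges at the end.

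The 42 genes differed widely in how many reads they gave. They were described in 2 classes by their mean count per library, a limit of 100 counts that was chosen after the counts had been seen. The 6 high-count genes held 193057 counts over all libraries, which was 91.6% of the counts of the 42 genes. These were *rpl34* (CMV072C) with 98968 counts, *rps6* (CMV079C) with 31121, *rps18* (CMV213C) with 24998, *rpl33* (CMV214C) with 21770, *rps14* (CMV137C) with 10708 and *rpl20* (CMV151C) with 5492. The single gene *rpl34*, for a small basic protein of the large subunit, took 47% of all counts of the 42 genes. The 36 low-count genes shared the remaining 17727 counts, and their means lay between 0 and 46.2 counts per library. These are sequencing depths and not transcript levels, since gene lengths were not used here and levels were therefore not compared between genes.

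The low-count class held all 24 genes that carry the names of the bacterial S10, spc, alpha and str clusters. Of these, 21 belong to the S10-spc-alpha list, such as *rpl2*, *rps3* and *rpl16*, and 3 to the str list, namely *rps12*, *rps7* and *rps10*. All 6 high-count genes were among the 18 genes outside these lists. At the bottom, *rpl29* (CMV172C) had 0 counts in all 29 libraries, which allows a level of up to 0.032 CPM over the summed libraries, counting error only. *rpl36* (CMV182C) had 13 counts in total and was at 0 in 20 libraries. *rpl23* (CMV166C) had 41 counts in total and was at 0 in 12 libraries. In all, 7 genes did not pass the filter on low counts, among them these 3 and *rps19*, *rpl13* and *rpl35*. The remaining 35 genes, 20 of the large and 15 of the small subunit, were tested within a fit over 4796 genes. One of the 35, *rps1* (CMV091C), is annotated as a remnant of the S1 gene.

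Counts of the low-count genes also varied more between cultures of one condition. The biological coefficient of variation estimated by edgeR had a median of 0.277 in the high-count genes, with a range of 0.164 to 0.33. It had a median of 0.663 in the tested low-count genes, with a range of 0.277 to 0.985, and of 0.163 over all tested genes. A few low-count genes lay at or near the range of the high-count class, among them *rps16* (CMV084C) with 0.277, *rps10* (CMV192C) with 0.327 and *rpl32* (CMV046C) with 0.332. The coefficient did not follow the counts closely, since *rps10* had 12 counts per library while *rpl1* (CMV103C), with 42 counts per library, had a coefficient of 0.682.

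**Figure D1:**
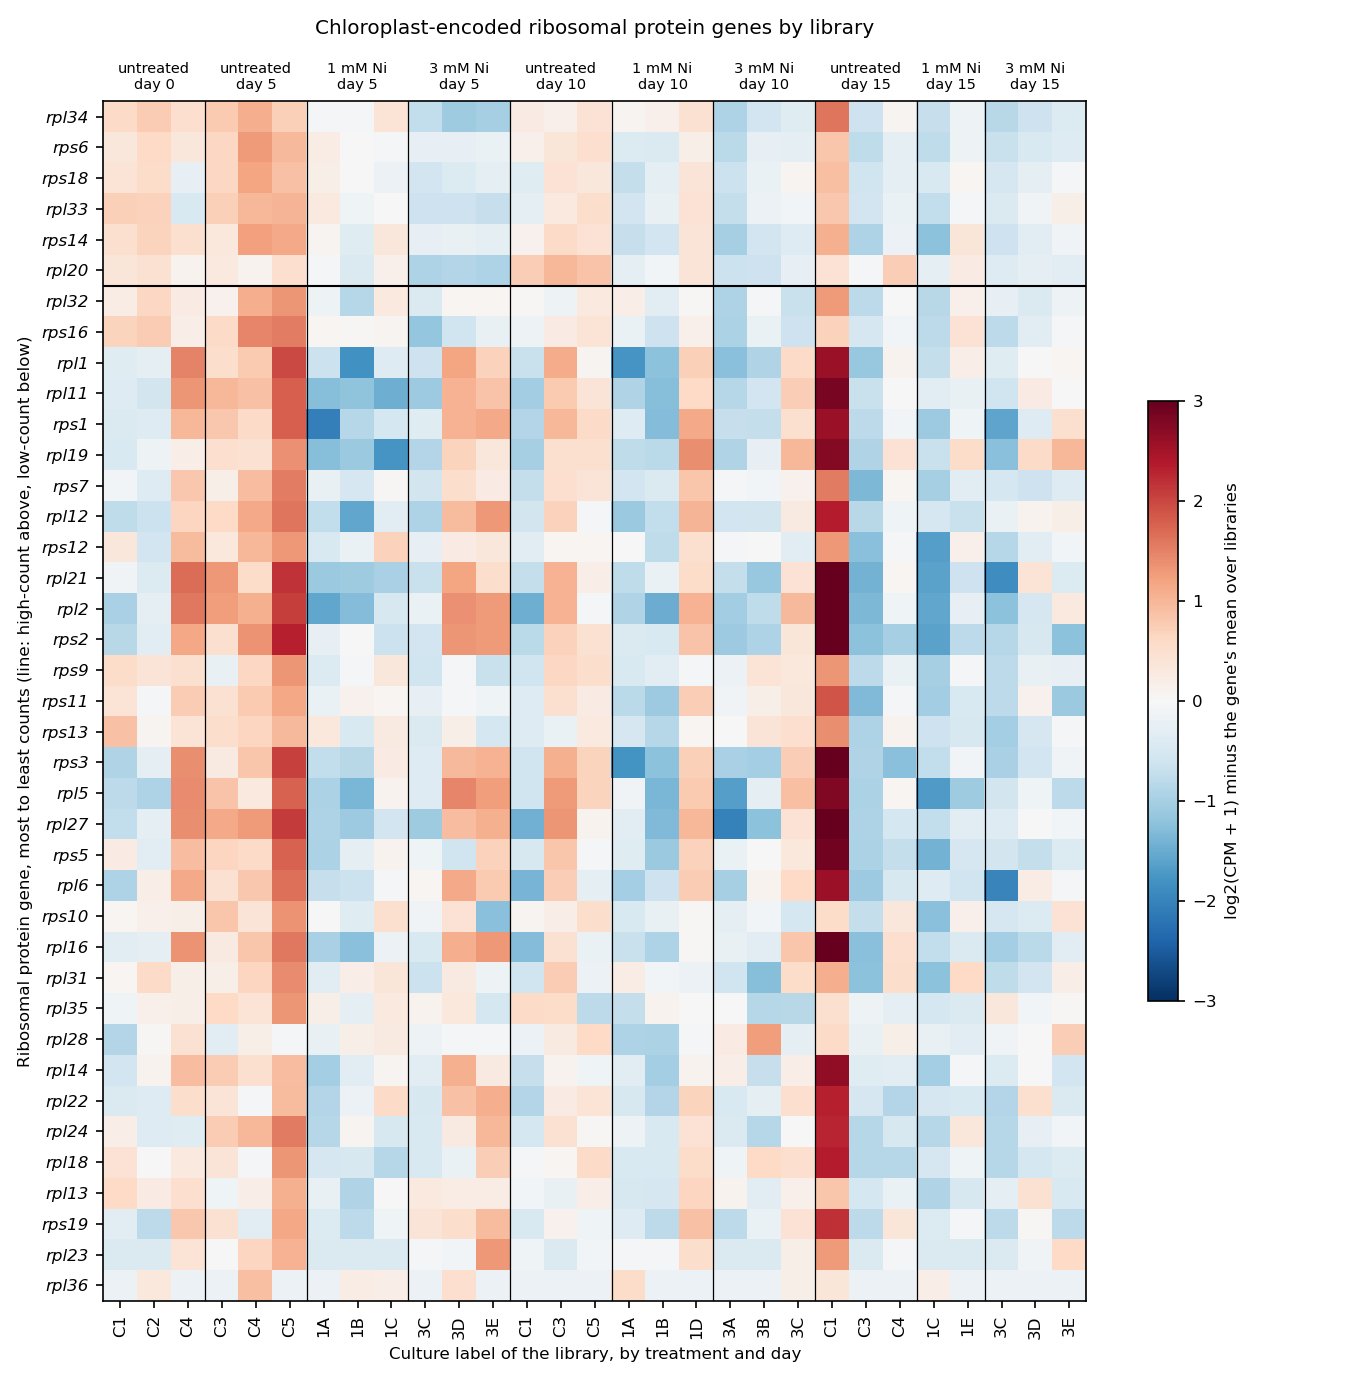
Levels of 39 of the 41 detected genes (rows, most to least counts) in the 29 libraries (columns, by treatment and day), as log2(CPM + 1) minus the mean of each gene over all libraries; red is above and blue below that mean, and the colours end at 3 in either direction. The untreated day 15 library C1 and the untreated day 5 library C5 are red for nearly all low-count genes, while the 3 mM Ni day 5 libraries are blue for the high-count genes above the line.

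In some conditions the low-count genes were high or low together, and in others less so. In untreated cells of day 15 their summed level was 940 CPM in culture C1, 69.3 CPM in C3 and 149 CPM in C4, and each of the 35 detected low-count genes was highest in C1. In untreated cells of day 5 the sums were 246 CPM in C3, 310 CPM in C4 and 543 CPM in C5, and C5 was the highest library for 33 of 35 genes. In 1 mM Ni on day 10, culture 1D was the highest for 31 of 35 genes, with 260 CPM against 102 CPM in 1A and 80.7 CPM in 1B. In each of these conditions the same 1 culture of 3 was the highest for most low-count genes. Elsewhere the share was lower. It fell to 19 of 35 genes in 3 mM Ni on day 5, 20 of 34 in 3 mM Ni on day 15 and 21 of 34 in untreated cells of day 10.

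Over the 10 conditions, the highest library exceeded the lowest by 1.56 to 13.6 times (median 2.18) for the low-count sum and by 1.08 to 3.78 times (median 1.34) for the high-count sum. The same libraries were mostly high for other chloroplast genes as well, both of low and of high counts. In 9 of 10 conditions the library with the highest low-count sum also had the highest sum of the 92 other chloroplast-encoded genes below the limit, and these sums lay between 428 and 3560 CPM over all libraries. In every condition but untreated cells of day 5, that library also had the highest sum of the 73 other chloroplast-encoded genes at or above the limit. For the sum of the 6 high-count ribosomal protein genes this held in 6 of 10 conditions. For the 34 mitochondrion-encoded genes, which served as a second organelle, it held in 5 of 10 conditions. What separates these libraries from the others of their condition was not tested.

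The comparison of 3 mM Ni with untreated cells on day 5 addressed the early response to the higher dose, and here 6 of the 35 tested genes were downregulated and 0 were upregulated (adjusted p < 0.05 by edgeR's quasi-likelihood test with Benjamini-Hochberg adjustment over all tested genes). Over all 4796 genes, 10.2% were called in either direction and 4.77% were lower. The 6 genes were *rpl34*, *rpl33*, *rps18*, *rps6*, *rpl20* and the low-count gene *rps16*. The median log2 fold change of the 35 genes was -0.92, against -0.91 for all 190 tested chloroplast-encoded genes and -0.04 for all genes. It was -1.3 for the 6 high-count and -0.78 for the 29 low-count genes, and 34 of the 35 values were below 0. Of the low-count genes, *rpl24* and *rpl18* passed the low-count filter through untreated libraries. These were day 5 C5 (12 and 10 counts) and day 15 C1 (17 and 18 counts). Medians and counts over 35 genes in comparisons with untreated day 5 cells therefore partly reflect the filter.

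*rpl34* had 590, 471 and 495 CPM in 3 mM Ni on day 5, against 1710, 2080 and 1620 CPM in untreated cells. All 3 treated libraries lay below all 3 untreated ones, and the fitted level was 3.48-fold lower (log2 fold change -1.80 ± 0.34 (SE), edgeR adjusted p = 0.00228). Where groups are described as apart here and below, the genes were picked by their call, their p or their values. The share of all genes with groups apart is not given. *rpl33*, for another small protein of the large subunit, had 144, 143 and 137 CPM in 3 mM Ni, against 362, 443 and 445 CPM in untreated cells. Its 3 treated libraries were nearly equal, and the fitted level was 2.94-fold lower (log2 fold change -1.56 ± 0.34, edgeR adjusted p = 0.00539).

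S6 and S18 bind next to each other on the small subunit of bacterial ribosomes. *rps18* had 170, 193 and 210 CPM in 3 mM Ni, against 393, 584 and 473 CPM in untreated cells (log2 fold change -1.34 ± 0.33, edgeR adjusted p = 0.011). *rps6* had 268, 267 and 278 CPM, against 487, 770 and 626 CPM in untreated cells (log2 fold change -1.21 ± 0.28, edgeR adjusted p = 0.008). Neither pair of groups overlapped. The adjusted p of *rps18* was 0.0642 without the 3 mM Ni culture 3C and 0.0561 without the untreated culture C4, while the other 5 calls were kept whichever of the 6 compared libraries was left out. The count of called genes was 9 without the untreated day 5 culture C3, 9 without the untreated day 15 culture C1 and 10 without both, a setting under which 33.3% of all genes were called. For the counts of 9 that share is not given here.

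L20 is needed for assembly of the large subunit in *Escherichia coli*, and S16 for that of the small subunit. *rpl20* had 28.6, 29.2 and 28.5 CPM in 3 mM Ni, against 67.6, 59.3 and 78.7 CPM in untreated cells, and was 2.38-fold lower (log2 fold change -1.25 ± 0.21, edgeR adjusted p = 0.000697). *rps16* had 5.34, 8.26 and 11 CPM in 3 mM Ni, against 20, 38 and 40.1 CPM in untreated cells, and was 3.95-fold lower (log2 fold change -1.98 ± 0.37, edgeR adjusted p = 0.00216). Both groups of libraries were apart for these 2 genes as well. The last high-count gene, *rps14*, had 90.5, 92 and 87.8 CPM in 3 mM Ni and 133, 252 and 238 CPM in untreated cells, and its log2 fold change of -1.20 ± 0.39 did not pass the threshold (edgeR adjusted p = 0.0527).

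The day 5 decrease was in part shared with other chloroplast genes. Chloroplast-encoded genes took 2.79% to 2.95% of the counts in 3 mM Ni on day 5 and 3.84% to 5.75% in untreated cells. When the libraries were scaled within the 190 tested chloroplast-encoded genes instead of over all genes, 0 of the 35 genes were called, with 2 lower at an unadjusted p under 0.05, and the median log2 fold change of the 35 genes was 0.01. On that scale the log2 fold change was -0.85 for *rpl34* (edgeR adjusted p = 0.17) and -1.05 for *rps16* (edgeR adjusted p = 0.17). In these bulk libraries, fewer cells with such RNA and less of it per cell cannot be told apart.

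**Figure D2:**
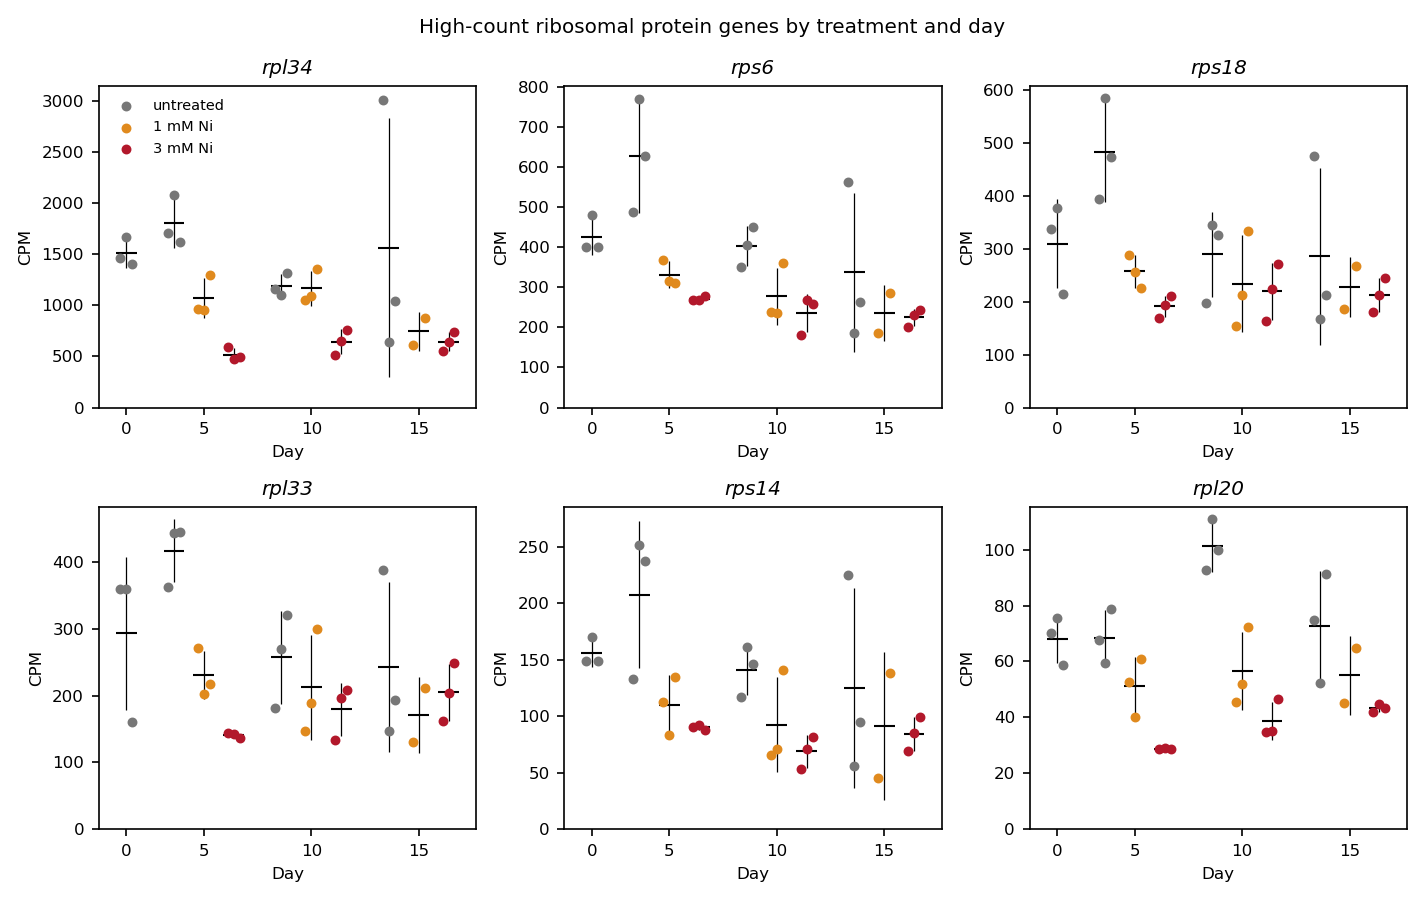
Level in CPM (vertical axis from 0) of the 6 high-count genes by day and treatment; points are libraries, horizontal bars group means and vertical lines ± 1 SD. On day 5 the 3 mM Ni libraries of *rpl34* lie between 471 and 590 CPM and the untreated ones between 1620 and 2080 CPM, and on day 15 the untreated library C1 is the highest for 5 of the 6 genes.

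On day 10, 3 genes were downregulated in 3 mM Ni relative to untreated cells and 0 were upregulated, namely *rpl20*, *rpl34* and *rps6*. Over all tested genes 29.2% were called in either direction and 14.2% were lower, so the share of 8.57% (3 of 35) was not above the background. *rpl20* had 34.6, 35.1 and 46.4 CPM in 3 mM Ni, against 92.8, 111 and 99.9 CPM in untreated cells. It was 2.61-fold lower with no overlap (log2 fold change -1.38 ± 0.20, edgeR adjusted p = 0.000149), and the call was kept whichever compared library was left out.

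*rpl34* had 518, 656 and 759 CPM in 3 mM Ni on day 10 and 1160, 1100 and 1320 CPM in untreated cells (log2 fold change -0.89 ± 0.33, edgeR adjusted p = 0.0479). *rps6* had 180, 267 and 258 CPM in 3 mM Ni and 351, 406 and 450 CPM in untreated cells (log2 fold change -0.78 ± 0.28, edgeR adjusted p = 0.0369). Both genes were separated between the groups, but both were near the threshold. Only *rpl20* was still called without the untreated culture C1, C3 or C5 or without the 3 mM Ni culture 3A or 3B, and without 3C all 3 were called. Without the untreated day 5 culture C3, which is not compared here, 4 genes were called. The share of all genes called in that fit is not given. In the fit scaled within chloroplast-encoded genes 0 of 35 were called, with 1 higher and 1 lower by an unadjusted p under 0.05.

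On day 15, 3 genes passed the threshold as lower in 3 mM Ni and 0 as higher, against 10.3% of all genes in either direction and 4.59% lower. *rpl34* had 555, 638 and 744 CPM in 3 mM Ni, against 3010, 644 and 1040 CPM in the untreated cultures C1, C3 and C4 (log2 fold change -1.28 ± 0.34, edgeR adjusted p = 0.021). The groups overlapped, and without C1 the log2 fold change was -0.38 (edgeR adjusted p = 0.349). *rpl16*, whose protein sits near the tRNA sites of the large subunit, had 2, 3 and 4 counts in 3 mM Ni and 69, 1 and 11 counts in the same untreated cultures. Its log2 fold change of -3.62 ± 1.08 (edgeR adjusted p = 0.0364) was -1.02 without C1 (edgeR adjusted p = 0.651).

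*rpl20* changed less in value without C1. It had 41.8, 44.7 and 43.2 CPM in 3 mM Ni on day 15, against 74.8, 52.3 and 91.3 CPM in untreated cells, and the groups did not overlap (log2 fold change -0.75 ± 0.20, edgeR adjusted p = 0.0235). Without C1 its log2 fold change was -0.73 (edgeR adjusted p = 0.0746) and without C4 -0.55 (edgeR adjusted p = 0.0841). Its call was kept only without C3, and lost when any other compared library was left out. The count of called genes on day 15 was 0 without C1, 15 without the untreated culture C3 and 8 without C4, and it was 0 when any of the 3 mM Ni cultures 3C, 3D or 3E was left out. These counts stand without the share of all genes called in the same fits, which is not given here. The median log2 fold change of the 35 genes was -1.34, and it was 0.16 over the 31 genes tested without C1. The rest of the 35 had passed the low-count filter only with C1 included, so the counts and the median over 35 genes partly reflect that library. Scaled within chloroplast-encoded genes, 0 were called, with 2 lower by an unadjusted p under 0.05.

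With 1 mM Ni, no gene of the 35 was called on any day by edgeR. On day 5, 22 of the 35 were lower and 0 higher at an unadjusted p under 0.05, while over all tested genes 0.48% were called and 23.5% had an unadjusted p under 0.05. DESeq2's Wald test called 5 genes as lower and limma-voom with a replicate block 0. The median log2 fold change of the 35 genes was -1.74, against -0.97 for all chloroplast-encoded genes. It was -0.88 for the high-count and -1.94 for the low-count genes. The filter limit given above for *rpl24* and *rpl18* holds here too.

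The 3 smallest p on day 5 belonged to *rps16*, *rps6* and *rpl11*. *rps16* had 13.6, 13.5 and 13.9 CPM in 1 mM Ni, against 20, 38 and 40.1 CPM in untreated cells (log2 fold change -1.25 ± 0.36, edgeR adjusted p = 0.0863). *rps6* had 369, 316 and 310 CPM in 1 mM Ni and 487, 770 and 626 CPM in untreated cells (log2 fold change -0.92 ± 0.28, edgeR adjusted p = 0.0946). *rpl11* (CMV102C), whose protein forms part of the site where translation factors bind, had 3.48, 3.68 and 2.9 CPM in 1 mM Ni and 20.4, 19 and 36.2 CPM in untreated cells (log2 fold change -2.89 ± 0.87, edgeR adjusted p = 0.0948). None of the 3 passed the threshold. Their groups were apart, but the genes were picked by the smallest p, so this adds no separate support.

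This comparison depended on which untreated libraries entered the fit. Without the untreated day 5 culture C3, 13 genes were called as lower, and without the untreated day 15 culture C1, which is not compared here but enters the estimate of the spread, 10 were. Without both, a choice made after seeing the data, 23 of the 31 tested genes were called as lower and 0 as higher (for example *rpl34* at -0.78 and *rpl11* at -3.02 on the log2 scale). The share of all genes called under that setting was 40.8%, and it is not given here for the counts of 13 and 10. In the fit within chloroplast-encoded genes 0 of 35 were called, with 8 lower at an unadjusted p under 0.05.

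On day 10, 2 of the 35 genes were lower in 1 mM Ni at an unadjusted p under 0.05 and 0 were higher, with 0.146% of all genes called and 8.76% at an unadjusted p under 0.05. DESeq2 called 1 gene, *rpl20*, and limma-voom 0. *rpl20* had 45.6, 52.1 and 72.4 CPM in 1 mM Ni and 92.8, 111 and 99.9 CPM in untreated cells (log2 fold change -0.83 ± 0.20, edgeR adjusted p = 0.0994). Without the 1 mM Ni culture 1D its log2 fold change was -1.05 (edgeR adjusted p = 0.0436). The next smallest p were those of *rpl28* (CMV011C), with 0.321, 0.314 and 1.44 CPM in 1 mM Ni and 1.25, 2.06 and 2.84 CPM in untreated cells, and of *rps6*, with 237, 235 and 360 CPM in 1 mM Ni and 351, 406 and 450 CPM in untreated cells. Their log2 fold changes were -1.40 ± 0.66 (edgeR adjusted p = 0.55) and -0.54 ± 0.27 (edgeR adjusted p = 0.599).

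On day 15, 11 of the 35 genes were lower in 1 mM Ni and 0 higher at an unadjusted p under 0.05, and DESeq2 and limma-voom called 0. In the fit without C1 of the untreated day 15 cells, 0 of 31 genes had such a p. Over all genes 0% were called and 9.09% had an unadjusted p under 0.05. The smallest p were those of *rpl21* (CMV034C), *rpl34* and *rps2* (CMV218C). *rpl21* had 1.16 and 3.28 CPM in the 2 libraries of 1 mM Ni, against 79.9, 1.44 and 5.84 CPM in untreated cells. *rps2* had 0.867 and 2.3 CPM in 1 mM Ni, against 51.9, 1.44 and 1.85 CPM in untreated cells. In both genes 1 untreated library, C1, was far above all others. *rpl34* had 611 and 881 CPM in 1 mM Ni, against 3010, 644 and 1040 CPM in untreated cells. Their log2 fold changes were -3.67 ± 1.27 for *rpl21*, -3.47 ± 1.27 for *rps2* and -1.07 ± 0.38 for *rpl34*, each with an edgeR adjusted p of 0.536. Without the untreated culture C1 they were -0.72, -0.08 and -0.18, in the same order, each with an edgeR adjusted p of 1.

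**Figure D3:**
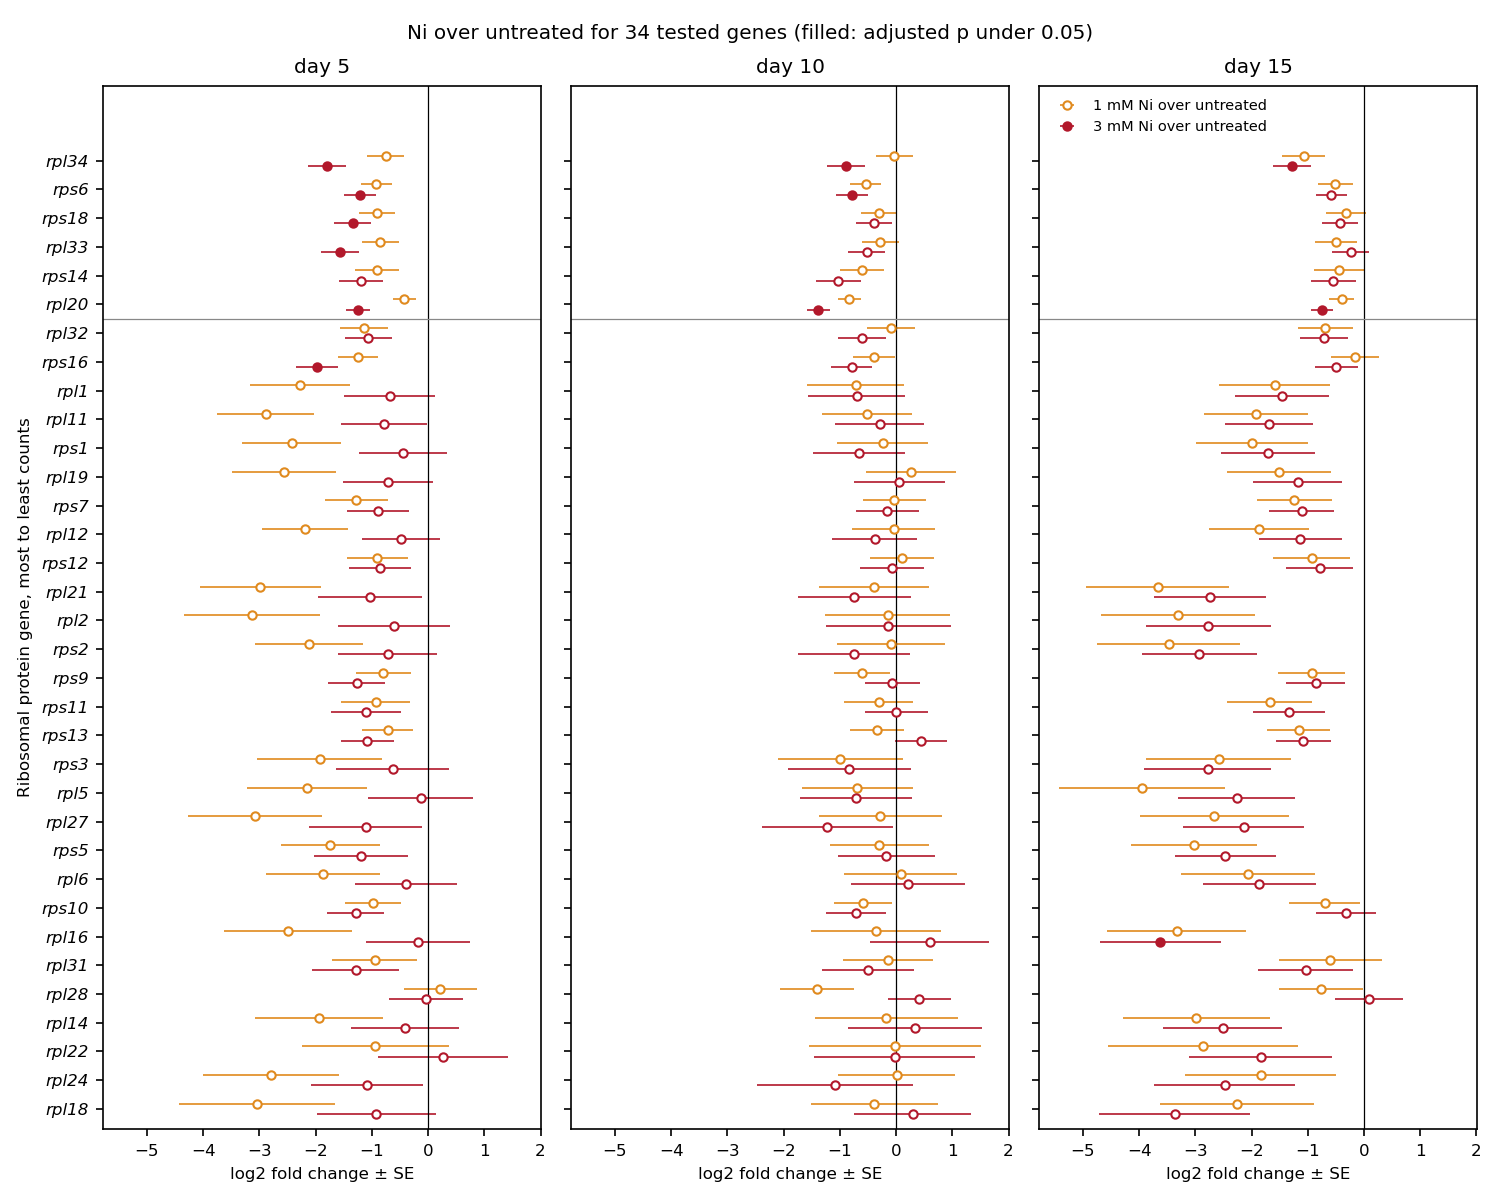
Log2 fold change of Ni over untreated cells (horizontal axis, ± 1 SE) for 34 of the 35 tested genes (rows, most to least counts), on days 5, 10 and 15 from left to right; filled points have an adjusted p under 0.05. The filled points are 6 on day 5, 3 on day 10 and 3 on day 15, all of 3 mM Ni, and the long error bars belong to the low-count genes below the line.

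The comparisons of both doses share their untreated libraries, so the doses were also compared with each other. No gene of the 35 was called by edgeR between 3 mM Ni and 1 mM Ni on any day. On day 5, 3 genes were higher in 3 mM Ni and 3 lower by an unadjusted p under 0.05, with 0.0834% of all genes called and 13.1% at an unadjusted p under 0.05. The 3 lower genes were of the high-count class, where all 6 log2 fold changes were below 0 with a median of -0.57. The median of the low-count genes was 1.48, and 22 of these 29 were above 0.

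*rpl34* had 590, 471 and 495 CPM in 3 mM Ni, against 966, 950 and 1300 CPM in 1 mM Ni on day 5, with no overlap (log2 fold change -1.05 ± 0.34, edgeR adjusted p = 0.21). *rpl20* had 28.6, 29.2 and 28.5 CPM in 3 mM Ni, against 52.5, 40.2 and 61 CPM in 1 mM Ni, also with no overlap (log2 fold change -0.83 ± 0.21, edgeR adjusted p = 0.122). *rpl34*, *rpl20* and *rpl33* were called as lower when only the 2 conditions were fitted, and *rpl34* alone by DESeq2 and without the untreated day 15 culture C1, while limma-voom called 0. The summed level of the low-count genes was 101, 266 and 247 CPM in 3 mM Ni, against 97.3, 92.1 and 144 CPM in 1 mM Ni, so the 3 mM Ni culture 3C lay within the range of 1 mM Ni.

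On day 10, 1 gene was higher and 2 were lower in 3 mM Ni than in 1 mM Ni at an unadjusted p under 0.05, with 8.55% of all genes called and 26.5% at an unadjusted p under 0.05. DESeq2 and limma-voom called 0. *rpl34* had 518, 656 and 759 CPM in 3 mM Ni and 1050, 1090 and 1360 CPM in 1 mM Ni, again with no overlap (log2 fold change -0.85 ± 0.33, edgeR adjusted p = 0.105). It was called when only the 2 conditions were fitted. *rpl28* had 1.99, 4.98 and 1.05 CPM in 3 mM Ni and 0.321, 0.314 and 1.44 CPM in 1 mM Ni. It was called as higher without the 1 mM Ni culture 1D, and *rpl28* as higher and *rpl20* as lower without the 3 mM Ni culture 3C. Without the untreated day 15 culture C1 or C3, *rpl34* was called as lower. On day 15, 0 genes had an unadjusted p under 0.05, DESeq2 and limma-voom called 0, and over all genes 0% were called and 4.44% had an unadjusted p under 0.05. There the 95% interval of the difference for *rpl34* ran from -0.93 to 0.52 on the log2 scale, and that for *rpl20* from -0.79 to 0.1.

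In untreated cells, no gene of the 35 was called by edgeR between successive days. From day 0 to day 5, where 39.7% of all genes were called, 0 genes were called by edgeR, DESeq2 or limma-voom, and 0 had an unadjusted p under 0.05, against 48% of all genes. The point estimates were all at or above 0, with a median of 0.73, and the filter limit given above for *rpl24* and *rpl18* holds here too. *rps6* had 487, 770 and 626 CPM on day 5 and 400, 479 and 400 CPM on day 0 (log2 fold change 0.56 ± 0.27, edgeR adjusted p = 0.109). Without the untreated day 5 culture C3, 1 gene was called as higher, *rps16*, and without the untreated day 15 culture C1, 2 genes, *rps6* and *rps18*. Without both, 8 genes were called as higher and 0 as lower. The shares of all genes called in these fits with libraries left out are not given here.

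Between day 10 and day 5, 1 gene was higher and 5 were lower on day 10 at an unadjusted p under 0.05, with 0% of all genes called and 11.1% at an unadjusted p under 0.05. DESeq2 and limma-voom called 0. Here *rpl20* stood on the other side of 0 from the rest of the high-count genes, with 92.8, 111 and 99.9 CPM on day 10 and 67.6, 59.3 and 78.7 CPM on day 5 (log2 fold change 0.56 ± 0.20, edgeR adjusted p = 0.263). The other 5 high-count genes had log2 fold changes of -0.55 to -0.74. Without the untreated day 5 culture C3, 1 gene was called, *rps16* as lower.

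Between day 15 and day 10, 3 genes were higher and 1 lower on day 15 at an unadjusted p under 0.05, with 10.5% of all genes called and 29.3% at an unadjusted p under 0.05. DESeq2 called 1 gene, *rpl16*, as higher and limma-voom 0. The 3 higher genes were low-count genes, each highest on day 15 in culture C1, and the lower one was *rpl20* (log2 fold change -0.48 ± 0.20, edgeR adjusted p = 0.112). Without C3 of day 15, *rpl21*, *rpl16* and *rpl14* were called as higher, and without C4, *rpl16* and *rpl14* as higher and *rpl20* as lower. *rpl14* had 26 counts in C1 and 11 in the 3 mM Ni day 5 culture 3D, and it passed the low-count filter through these libraries. Its call as higher on day 15 is therefore not independent of the filter. Without C1, 0 genes were called, with 0 higher and 4 lower by their unadjusted p.

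**Figure D4:**
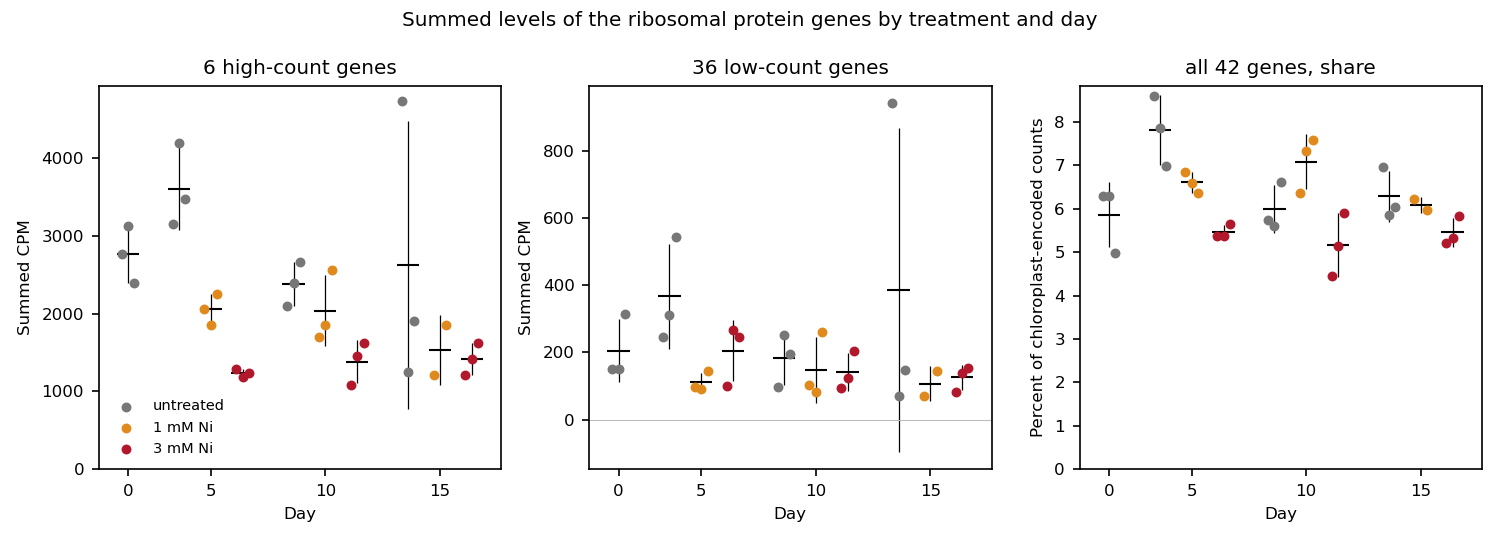
Summed level of the 6 high-count genes and of the 36 low-count genes in CPM, and share of all 42 genes in the chloroplast-encoded counts in percent, by day and treatment; points are libraries, horizontal bars group means and vertical lines ± 1 SD. The high-count sums in 3 mM Ni lie between 1080 and 1620 CPM on all days, and the untreated day 15 library C1 reaches 4730 CPM in the first and 940 CPM in the second panel.

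Within 3 mM Ni, none of the 35 genes passed the threshold between successive days in the edgeR fit. Between day 10 and day 5, 0 genes were called by edgeR, DESeq2 or limma-voom and 0 had an unadjusted p under 0.05 in edgeR, while over all genes 0% were called and 15.2% had an unadjusted p under 0.05. Between day 15 and day 10 these numbers were again 0 for the 35 genes, with 1.71% of all genes called and 17.7% at an unadjusted p under 0.05. The smallest edgeR p among the high-count genes belonged to *rpl20* between day 10 and day 5, with 34.6, 35.1 and 46.4 CPM on day 10 and 28.6, 29.2 and 28.5 CPM on day 5 (log2 fold change 0.43 ± 0.21, edgeR adjusted p = 0.332).

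The change of the 3 mM Ni response between days was tested as an interaction. From day 5 to day 10, 0 genes were called by edgeR, DESeq2 or limma-voom, 4 were above 0 at an unadjusted p under 0.05, and over all genes 0% were called and 5.3% had an unadjusted p under 0.05. The estimates were 1.04 ± 0.46 for *rpl33* (edgeR adjusted p = 0.907), 0.94 ± 0.45 for *rps18* (edgeR adjusted p = 0.907) and -0.13 ± 0.29 for *rpl20* (edgeR adjusted p = 0.976) on the log2 scale. From day 10 to day 15, 0 were called by the 3 tools, 1 was above and 3 were below 0 at an unadjusted p under 0.05, and over all genes 0% were called and 22.1% had an unadjusted p under 0.05. Leaving out the untreated day 15 library C1 gave 3 above and 0 below 0 by this measure. A fall that passed the threshold on day 5 and not on day 10, as for *rpl33* and *rps18*, was not shown to differ between the days.

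The level of the 42 genes was also summed, as a description with no test, and on days 5 and 10 the mean sum was lower at each higher dose. On day 5 it was 3980 ± 553 CPM in untreated cells, 2160 ± 228 CPM in 1 mM Ni and 1450 ± 47.4 CPM in 3 mM Ni (SD, n = 3 each). On day 10 it was 2570 ± 336 CPM in untreated cells, 2190 ± 556 CPM in 1 mM Ni and 1530 ± 327 CPM in 3 mM Ni (SD, n = 3 each). On day 15 it was 3010 ± 2330 CPM in untreated cells (SD, n = 3), 1630 ± 506 CPM in 1 mM Ni (SD, n = 2) and 1540 ± 242 CPM in 3 mM Ni (SD, n = 3). The day 5 order was that of the high-count genes, with means of 3610, 2050 and 1240 CPM by rising dose. For the low-count genes the day 5 means were 367, 111 and 205 CPM, higher in 3 mM than in 1 mM Ni. On day 10 the libraries of 1 mM Ni (1800 to 2820 CPM) overlapped those of untreated cells (2200 to 2860 CPM). They also overlapped those of 3 mM Ni (1180 to 1830 CPM). The libraries of both doses overlapped on day 15, with 1280 and 1990 CPM in 1 mM Ni and 1290, 1560 and 1770 CPM in 3 mM Ni. Among the untreated day 15 cultures C1 had 5670 CPM, while C3 and C4 had 1320 and 2040 CPM. The log2 ratio of 3 mM Ni to untreated means on day 15 was -0.97 with C1 and -0.13 without it.

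The 42 genes were also taken as a share of the chloroplast-encoded counts. Their mean share was 7.81% in untreated cells, 6.61% in 1 mM Ni and 5.47% in 3 mM Ni on day 5. It was 5.99% in untreated cells, 7.09% in 1 mM Ni and 5.17% in 3 mM Ni on day 10, and 6.29%, 6.09% and 5.46% in that order of doses on day 15. The log2 ratio to untreated cells was nearer to 0 for the share than for the sum in 5 of the 6 comparisons. In 1 mM Ni on day 10 it was 0.24 for the share, against -0.23 for the sum.

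Other chloroplast-encoded genes were lower in 3 mM Ni on day 5 as well. Of 53 tested photosynthesis genes, which encode subunits of the photosystems, the cytochrome complex, the ATP synthase, the phycobilisome and Rubisco, 22 were downregulated and 0 upregulated, with a median log2 fold change of -1.0. Of 9 genes for the chloroplast RNA polymerase, translation factors and the SecY translocase, 0 were called by edgeR, with 4 lower at an unadjusted p under 0.05 and a median of -0.83. On day 10, 15 of the photosynthesis genes were downregulated and 0 upregulated, with a median of -0.6, and on day 15 14 were downregulated and 0 upregulated, with a median of -0.9. In the RNA polymerase and translation list 0 genes were called by edgeR on day 10 or 15, with 1 and 4 lower at an unadjusted p under 0.05. The day 15 values rested on the untreated culture C1. Without it, 0 of the 53 photosynthesis genes were called on day 15, with 3 lower by their unadjusted p and a median of -0.11. In the RNA polymerase and translation list, 0 were called without it, with 1 higher by its unadjusted p and a median of 0.36. On day 5, the number of downregulated photosynthesis genes was 22 without the untreated day 5 culture C3 and 30 without the day 15 culture C1, and in the RNA polymerase and translation list 2 and 4 were called as lower in these fits. On day 10, the numbers were 15 and 19 photosynthesis genes, and 1 and 0 in the other list.

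Nucleus-encoded ribosomal protein genes had other values in the same libraries. Of 66 tested genes for cytosolic ribosomal proteins, 6 were upregulated and 0 downregulated in 3 mM Ni on day 5, and the log2 fold changes had a median of 0.41. On day 10, 57 of the 66 were upregulated and 0 downregulated, and the median was 0.9, against a median of -0.4 for the 35 chloroplast-encoded genes. On day 15, 0 were upregulated and 2 downregulated, with a median of -0.03. Of 4 further genes whose descriptions name a chloroplast or plastid ribosomal protein (S21, L3, S1 and L10), 0 were called in 3 mM Ni on day 5 or 15 by edgeR, with 0 at an unadjusted p under 0.05, and 1 was upregulated on day 10. Among 31 nucleus-encoded mitochondrial ribosomal protein genes, 0 were called on day 5, although 2 were higher and 4 lower by their unadjusted p (under 0.05). On day 10, 3 were upregulated and 3 downregulated, and on day 15 1 and 5. When C1 of day 15 was left out, 0 genes of the cytosolic and 0 of the mitochondrial list were called on day 15, with 1 higher and 2 lower in the cytosolic and 3 higher and 6 lower in the mitochondrial list by their unadjusted p. When C3 of the untreated day 5 cells was left out, 41 cytosolic genes were upregulated on day 5 and 0 downregulated, with a median of 0.68, and 1 mitochondrial gene was upregulated and 4 were downregulated. Without C1 of day 15, 11 cytosolic genes were upregulated on day 5 and 0 downregulated, and 1 mitochondrial gene was upregulated and 2 were downregulated.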

How the data were processed

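RNA of bulk *C. merolae* cultures was sequenced by the authors after poly(A) selection. The deposited values are raw counts per gene, made by the authors with Trimmomatic, HISAT2 and HTSeq (versions 0.39 for Trimmomatic and 0.9.1 for HTSeq per the labels). All 29 libraries, of 2602444 to 4067107 counts each, were used, grouped by dose and day from the labels, and separate cultures were taken as replicates.

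Here, counts were fitted in R 4.3.3 with edgeR 4.0.16 (TMM factors, filterByExpr, quasi-likelihood F test, 1 coefficient per condition). This kept 4796 of 4984 genes, and p-values were adjusted (Benjamini-Hochberg) over these, with 0.05 as the threshold. CPM values are TMM-scaled. The SE of a log2 fold change was derived from its size and its F statistic, and 95% intervals are 1.96 SE to either side. Alternatives were DESeq2 1.42.0, limma 3.58.1 (voom) with the culture label as a replicate block, other scalings, no filter, and leaving out libraries. The fit scaled within chloroplast-encoded genes estimated the spread and adjusted p over those 190 genes only. Fits without a library were filtered and adjusted over their own genes. Their adjusted p are therefore not on the same basis as those of the main fit. The share of all genes called in such fits is given only where stated. The pipeline was tested on simulated data with the same dispersion for all genes and no deviating library. That test does not cover the larger spread of the low-count genes or a library such as C1. The members and lists were chosen with earlier results of these data known. Values per library are given for 3 members in each comparison of Ni with untreated cells (those called with the largest change, or, with fewer than 3 called, those with the smallest p). Other called members, and examples such as *rps14* or *rpl34* in other comparisons, were chosen after their values were seen. A further part of the rule, on the members with the highest and lowest level per gene length, was not applied, since gene lengths were not used here. The authors' own fold changes were not used. Of the 42 genes, 2 are counted in all numbers but not reported by name here.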

Additional observations from a re-analysis of the deposited data

How the results depend on the processing

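DESeq2 size factors, scaling by nuclear genes only, no filter beyond 1 count, and the replicate block changed none of the 16 counts of called genes by over 1.5 times. The culture labels were not shown to pair libraries: over 18 pairs with the same label the correlation of deviations from condition means had a median of -0.04 and exceeded 0.1 in 2. With the replicate block in limma-voom (consensus correlation -0.0538), 6, 3 and 2 genes were called in 3 mM Ni against untreated cells on days 5, 10 and 15. Scaling within chloroplast-encoded genes gave 0, 0 and 0 there, and 1 for 3 mM against 1 mM Ni on day 5. *rps6* in 1 mM Ni on day 5 was reversed on that scale, at 0.12. As a share of chloroplast-encoded counts, the log2 ratio of the summed level was -0.24 and 0.24 in 1 mM Ni on days 5 and 10, and -0.52 and -0.21 in 3 mM Ni on days 5 and 10.

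Fitting only the conditions compared gave 0 for 3 mM Ni against untreated cells on day 15, and 3 and 1 for 3 mM against 1 mM Ni on days 5 and 10. DESeq2 gave 7 for 3 mM Ni against untreated cells on day 15, 5 and 1 for 1 mM Ni on days 5 and 10, 1 for 3 mM against 1 mM Ni on day 5, and 1 for untreated day 15 against day 10. Without untreated day 15 C1 and day 5 C3 together, the counts were 23 and 1 for 1 mM Ni on days 5 and 10, 10 and 0 for 3 mM Ni on days 5 and 15, 2 and 3 for 3 mM against 1 mM Ni on days 5 and 10, and 8, 6 and 1 for the successive untreated days. The causes were not tested.

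Leaving out each library in turn, the count for 1 mM Ni against untreated cells ranged from 0 to 13 on day 5 and 0 to 1 on day 10. For 3 mM Ni it ranged from 5 to 9 on day 5, 1 to 4 on day 10 and 0 to 15 on day 15. For 3 mM against 1 mM Ni it ranged from 0 to 1 on day 5 and 0 to 2 on day 10. For the untreated days it ranged from 0 to 2 (day 5 against 0), 0 to 1 (day 10 against 5) and 0 to 3 (day 15 against 10). The log2 ratio of the summed level ranged from -0.98 to -0.78, -0.46 to -0.11 and -1.24 to -0.04 in 1 mM Ni on days 5, 10 and 15, and from -1.56 to -1.36, -0.9 to -0.6 and -1.32 to -0.13 in 3 mM Ni. Depth limits what can be said of the 7 genes that were not tested, each with 171 counts or fewer over all libraries.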
